A study of Mus musculus with 32 samples.

Results

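Liver transcripts of mice in long light were compared across a 6 h step of the daily cycle: 4 libraries taken at ZT0 were set against 4 libraries taken at ZT18. The 8 libraries were selected by their titles, and they are 8 of the 32 in the series. ZT (zeitgeber time) counts hours from an event of the light cycle. No source used here gives the event that sets ZT0, the hours of light per day in each photoperiod or the age of the mice. The LL ZT0 group and the LL ZT18 group each held 4 livers of male C3H/HeNCrl mice kept in long light (LL), and all of these mice were fed a high fat diet (labelled HFD). The remaining 24 libraries cover ZT6 and ZT12 in long light and ZT0, ZT6, ZT12 and ZT18 in short light (SL), with the same strain, sex and diet and with 4 mice per group. Polyadenylated liver RNA was sequenced. Each mouse was sampled at a single time, so each comparison is between different animals. Mice on another diet were not analysed here.

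The circadian clock is a transcriptional feedback loop. The activators Arntl (BMAL1), Clock and Npas2 bind E-box sequences and switch on the period (Per), cryptochrome (Cry) and REV-ERB (Nr1d1, Nr1d2) genes, whose proteins then repress the activators or their transcription. In liver this loop, together with feeding and hormone rhythms, times the synthesis of lipids, glucose, heme and bile acids and the processing of drugs. The PAR bZIP factors Dbp, Tef and Hlf carry clock time from the loop to many of these output genes through D-box sequences.

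The 8 libraries held 9095615 to 16652750 counts, and 19761 to 21148 genes had at least 1 read in a library. Each library had a mean correlation of 0.981 to 0.986 with its group mates on the log2 scale. LL ZT0 replicate 2 stood apart: on the first principal component of the 8 libraries, which held 32.3% of the variance, LL ZT0 replicates 1, 3 and 4 lay between 23.4 and 33.5, replicate 2 lay at -4.44, and the LL ZT18 libraries lay between -28.9 and -8.45. Summed skeletal muscle markers, a sign of tissue from outside the liver, were 8.80, 128, 2.09 and 0.797 CPM (TMM-scaled counts relative to library size) in LL ZT0 replicates 1 to 4, against 35.8, 78.8, 261 and 13.7 CPM in LL ZT18 replicates 1 to 4. Of 11 tested muscle markers, 0 passed the test described below, which 4.88% of all tested genes passed. When LL ZT0 replicate 2 was left out, 8 of the 11 were called lower, in a fit that called 381 genes lower in all. Summed exocrine pancreas markers reached 31.9 CPM in LL ZT0 replicate 4 and at most 0.246 CPM in the other 7 libraries. Hepatocyte markers, headed by albumin, summed to 120007 to 140679 CPM in the LL ZT0 livers and 132989 to 150273 CPM in the LL ZT18 livers. Another long light library, ZT12 replicate 3, lies outside this comparison but shares its estimate of spread, and its mean correlation with its group mates was 0.969, against 0.982 to 0.984 for theirs. In bulk tissue, fewer cells of a type and less RNA per cell cannot be told apart.

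At ZT0 the long light livers had more Npas2, more of the nuclear receptor gene Ppard and the fatty acid elongase gene Elovl3, and more of 7 endoplasmic reticulum (ER) chaperone genes than at ZT18. They had less of the period genes, of the heme and P450 genes Alas1 and Por, and of 7 genes of fat synthesis, 8 of gluconeogenesis and 7 of amino acid breakdown. Of 14456 tested genes, 706 (4.88%) passed edgeR's quasi-likelihood test at a Benjamini-Hochberg adjusted p under 0.05, which is what "called" means here. Higher at ZT0 were 331 genes (2.29%), and 375 genes (2.59%) were lower. Most changes were small: 387 of the called genes differed by less than 1.5-fold, while 73 rose and 74 fell by at least 1 on the log2 scale. For 614 of the 706 genes the 4 LL ZT0 and 4 LL ZT18 values did not overlap, against 942 genes (6.52%) entirely higher and 957 genes (6.62%) entirely lower among all tested genes. Genes named below for the largest rises and falls were picked among those without overlap, so for them the separation is no added support. The median log2 change was 0.56 among the genes called higher, -0.54 among those called lower and 0.01 over all tested genes. Protein-coding genes made up 639 of the 706. Summed over their mean CPM, the genes called higher made up 24367 CPM at LL ZT0 and 16935 CPM at LL ZT18, and the genes called lower made up 50306 CPM at LL ZT0 and 73406 CPM at LL ZT18.

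These totals depend on single libraries. Without LL ZT0 replicate 2, 695 genes were called, of which 554 were among the 706. Without LL ZT0 replicate 1 the count was 443, the lowest on leaving out any one library of the 8, and without LL ZT18 replicate 1 it was 473, with 204 genes called higher. Without LL ZT12 replicate 3 the count was 1266, which held all 706.

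**Figure D1:**
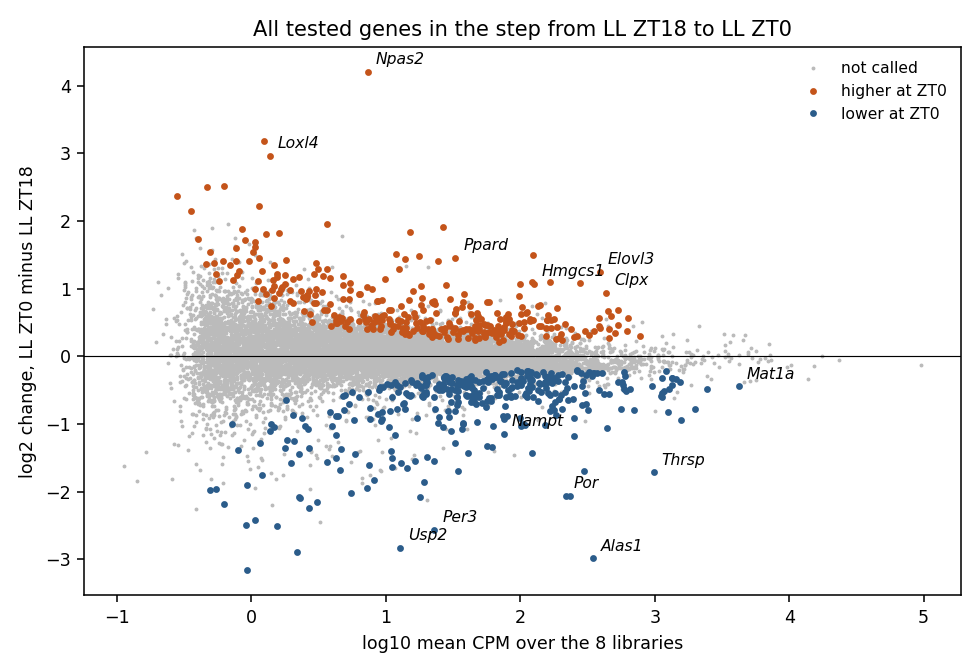
Each point is 1 of the 14456 tested genes, placed by the log10 of its mean CPM over the 8 libraries (horizontal) and its log2 change, LL ZT0 minus LL ZT18 (vertical). Orange points are the 331 genes called higher at ZT0 and blue points the 375 called lower; Npas2 has the largest labelled rise (4.20) and Alas1 the largest labelled fall (-2.99).

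The clock gene Npas2 (ENSMUSG00000026077, chr1:39193731-39363236), a partner of Arntl that can stand in for Clock, had the largest rise of any called gene. It had 19.9, 9.13, 12.4 and 14.6 CPM in the LL ZT0 livers, against 0.8, 1.46, 0.0691 and 0.725 CPM in the LL ZT18 livers. Every LL ZT0 liver was above every LL ZT18 liver, although LL ZT18 replicate 3 lay more than an order below its mates. The rise was 18.3-fold by edgeR's model, a log2 change of 4.20 ± 0.41 (SE, edgeR adjusted p = 1.36e-07). The other 2 activators did not pass the test. Arntl had 36.7, 39.7, 42.7 and 38.05 CPM in the LL ZT0 livers, against 24.6, 24.1, 29.2 and 25.5 CPM in the LL ZT18 livers. The groups did not overlap, yet the log2 change of 0.60 ± 0.23 had an edgeR adjusted p of 0.138. Clock, whose protein pairs with Arntl, changed by 0.31 ± 0.19 with overlapping groups (edgeR adjusted p = 0.424).

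The period genes, which encode repressors of the loop, fell together. Per3 (ENSMUSG00000028957, chr4:151003652-151044665) had 5.43, 6.03, 8.68 and 6.77 CPM in the LL ZT0 livers, against 37.2, 38.4, 37.6 and 43.6 CPM in the LL ZT18 livers. The 2 groups were far apart, with a level 5.91-fold higher at ZT18 by edgeR's model, a log2 change of -2.56 ± 0.27 (SE, edgeR adjusted p = 3.84e-07). Per1 had 7.92, 10.7, 5.17 and 8.96 CPM in the LL ZT0 livers, against 26.8, 39.96, 37.2 and 17.9 CPM in the LL ZT18 livers, without overlap, a log2 change of -1.86 ± 0.29 (SE; edgeR adjusted p = 0.000138). Per2 had a log2 change of -1.34 ± 0.19 without overlap (edgeR adjusted p = 2.58e-05). Ciart, which encodes the repressor CHRONO, had 0.513, 1.29, 0.7695 and 1.06 CPM in the LL ZT0 livers, against 4.31, 3.37, 6.15 and 4.08 CPM in the LL ZT18 livers. Its low counts left a wide error, -2.24 ± 0.55 (SE; edgeR adjusted p = 0.0124), and its groups did not overlap. Among the cryptochromes Cry2 fell modestly, by 0.50 ± 0.10 (edgeR adjusted p = 0.00199), whereas Cry1 changed by -0.26 ± 0.13 and did not pass (edgeR adjusted p = 0.314). The E-box repressors Bhlhe40 and Bhlhe41 had log2 changes of -0.75 ± 0.27 and -0.31 ± 0.63, with edgeR adjusted p of 0.109 and 0.861. Of 8 tested genes in the list of clock repressors, 5 were called lower (against 2.59% of all genes) and 0 higher, with a median log2 change of -1.04.

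The nuclear receptors of the loop and the PAR bZIP factors differed among themselves. The REV-ERB gene Nr1d2 fell by 1.05 ± 0.19 (edgeR adjusted p = 0.000647). Its paralog Nr1d1 had 4.69, 14.1, 10.7 and 6.51 CPM in the LL ZT0 livers, against 5.11, 5.78, 9.26 and 8.697 CPM in the LL ZT18 livers. These values overlapped, LL ZT0 replicate 2 was the highest of all 8, and the log2 change of 0.32 ± 0.33 (edgeR adjusted p = 0.687) turned to -0.02 without it. Rora showed 0.11 ± 0.20 and overlapping groups. Tef had 56.03, 70.8, 68.8 and 68.8 CPM in the LL ZT0 livers, against 168, 163, 193 and 188 CPM in the LL ZT18 livers, a clear separation with a log2 change of -1.43 ± 0.14 (SE; edgeR adjusted p = 1.36e-07). Dbp had 2.2, 1.87, 3.08 and 1.79 CPM in the LL ZT0 livers, against 7.14, 4.32, 6.701 and 9.62 CPM in the LL ZT18 livers, with a log2 change of -1.69 ± 0.47 (edgeR adjusted p = 0.0295). The groups of Dbp did not overlap, but its call was lost without LL ZT0 replicate 2. Hlf and Nfil3, a repressor that shares the D-box, had log2 changes of -0.41 ± 0.15 and 0.14 ± 0.13 and did not pass the test (edgeR adjusted p = 0.114 and 0.637).

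**Figure D2:**
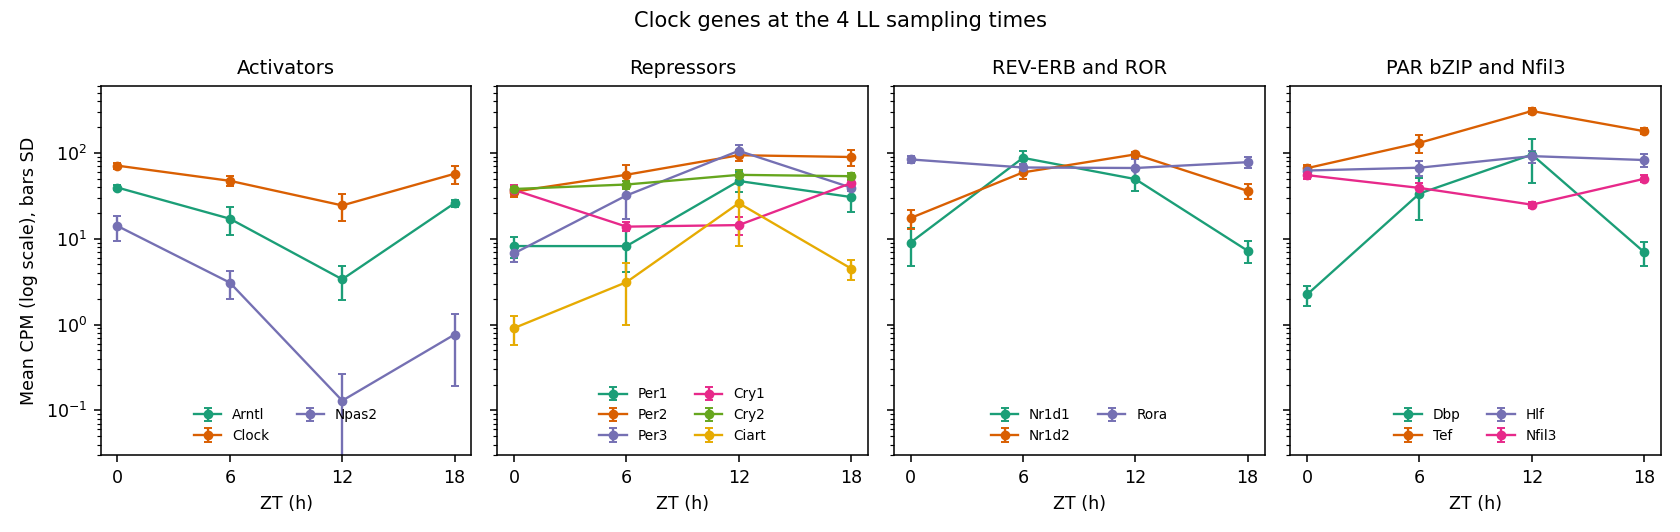
Mean CPM on a log scale (vertical) of clock genes at ZT0, ZT6, ZT12 and ZT18 in long light (horizontal), with SD bars over 4 livers; a lower bar that reaches the axis has an SD nearly as large as its mean. Npas2 averaged 14.03 CPM at ZT0 and 0.764 CPM at ZT18, while Per3 averaged 6.73 CPM at ZT0 and 39.2 CPM at ZT18.

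The promoters of the clock genes with the 3 highest and the 3 lowest log2 changes are printed to show which clock motifs stand at their starts. Each runs from 250 bases before to 50 bases after the gene's start, in RefSeq's table for GRCm38.p6. Capitals mark the E-box CACGTG, the D-box TTATGTAA or TTACGTAA, or the ROR half-site AGGTCA, each searched on both strands. The CRE (TGACGTCA) was searched too. Only exact letters inside the window were counted, so a variant of a motif or a copy further away would have been missed. The windows of Npas2 (chr1:39194022-39194321, plus strand), Arntl (chr7:113207215-113207514, plus strand, the first of 2 listed) and Nr1d1 (chr11:98775328-98775627, minus strand) held none of these motifs. The stretch just after the start in the Nr1d1 window was not found in any GENCODE M21 transcript of that gene. The Per3 window (chr4:151044616-151044915, minus strand) held the D-box at 205 and 158 bases before the start. The Ciart window (chr3:95882179-95882478, minus strand) held the E-box at 116, 58 and 44 bases before the start. In the first of 2 windows listed for Per1 (chr11:69098699-69098998, plus strand), an E-box lay 166 and a ROR half-site 137 bases before the start.
Npas2: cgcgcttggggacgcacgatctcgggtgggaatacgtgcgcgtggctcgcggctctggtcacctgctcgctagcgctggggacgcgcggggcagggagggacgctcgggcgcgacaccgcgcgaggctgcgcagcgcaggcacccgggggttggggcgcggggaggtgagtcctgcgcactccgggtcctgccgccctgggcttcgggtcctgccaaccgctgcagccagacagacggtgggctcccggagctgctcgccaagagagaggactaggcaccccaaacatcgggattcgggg
Arntl: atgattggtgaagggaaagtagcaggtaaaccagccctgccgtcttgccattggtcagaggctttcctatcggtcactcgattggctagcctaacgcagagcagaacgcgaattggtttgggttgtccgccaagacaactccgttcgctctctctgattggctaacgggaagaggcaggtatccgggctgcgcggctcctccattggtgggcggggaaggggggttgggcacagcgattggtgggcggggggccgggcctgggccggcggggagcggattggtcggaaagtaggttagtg
Nr1d1: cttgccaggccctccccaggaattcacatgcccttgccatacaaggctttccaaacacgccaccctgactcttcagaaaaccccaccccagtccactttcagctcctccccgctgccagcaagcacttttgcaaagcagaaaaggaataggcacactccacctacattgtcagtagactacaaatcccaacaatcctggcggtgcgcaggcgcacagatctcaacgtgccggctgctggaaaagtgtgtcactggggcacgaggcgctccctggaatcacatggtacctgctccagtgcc
Per3: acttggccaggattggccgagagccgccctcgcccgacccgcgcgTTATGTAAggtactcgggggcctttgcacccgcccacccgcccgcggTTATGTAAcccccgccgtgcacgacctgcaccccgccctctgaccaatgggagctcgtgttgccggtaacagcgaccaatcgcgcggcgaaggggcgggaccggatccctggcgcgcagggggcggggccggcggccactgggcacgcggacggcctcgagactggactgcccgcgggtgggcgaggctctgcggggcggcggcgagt
Ciart: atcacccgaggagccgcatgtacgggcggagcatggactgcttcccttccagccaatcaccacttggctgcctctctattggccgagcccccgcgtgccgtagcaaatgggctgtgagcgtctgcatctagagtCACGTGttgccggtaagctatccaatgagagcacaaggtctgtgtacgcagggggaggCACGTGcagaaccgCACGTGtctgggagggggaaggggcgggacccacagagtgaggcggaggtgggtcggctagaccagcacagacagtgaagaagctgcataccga
Per1: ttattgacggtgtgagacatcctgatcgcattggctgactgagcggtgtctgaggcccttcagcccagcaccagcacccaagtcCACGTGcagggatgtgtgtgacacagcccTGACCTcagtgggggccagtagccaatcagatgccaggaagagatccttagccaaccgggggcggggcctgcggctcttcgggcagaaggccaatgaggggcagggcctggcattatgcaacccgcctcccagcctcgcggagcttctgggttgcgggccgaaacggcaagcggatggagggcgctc

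Across promoters, 252 of the genes called higher, 292 of those called lower and 10484 of all tested genes had a window in the table. The D-box occurred in 0.794% of windows of genes called higher, 2.74% of those called lower and 0.715% of all tested genes. The 8 genes called lower with a D-box were Per3, Gde1, Prnp, Coq10b, Gm19522, Ak4, Homer2 and Baz1b. The ROR half-site stood in 13.9%, 20.9% and 12.8% of the same 3 sets of windows, the E-box in 8.73%, 12.3% and 10.1%, and the CRE in 1.59%, 1.71% and 3.16%. A motif match is a description of the letters and shows no binding.

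The large rises outside the clock ran over several kinds of gene. Ppard (ENSMUSG00000002250, chr17:28232700-28301474), a lipid-sensing nuclear receptor, had 50.9, 44.8, 39.6 and 57.7 CPM in the LL ZT0 livers, against 20.8, 18.5, 14.99 and 16.1 CPM in the LL ZT18 livers. The lowest ZT0 value was well above the highest ZT18 value, and the log2 change was 1.46 ± 0.15 (SE; edgeR adjusted p = 1.76e-07). Loxl4, a lysyl oxidase family member that cross-links matrix proteins, had 4.84, 1.05, 2.64 and 1.26 CPM in the LL ZT0 livers, against 0.185, 0.146, 0.484 and 0.395 CPM in the LL ZT18 livers. It was scarce in every LL ZT18 liver and uneven among the LL ZT0 livers, with a log2 change of 2.96 ± 0.51 (SE; edgeR adjusted p = 0.000399). Spon2, a secreted matrix protein, rose by 1.91 ± 0.26; the small GTPase gene Rab36 rose by 1.52 ± 0.17 and the plasma protease inhibitor gene Mug2 by 1.49 ± 0.23, with edgeR adjusted p of 1.60e-05, 9.90e-07 and 9.57e-05. Mug2 has a close paralog, and no source used here gives how reads shared by copies were counted. Zfp941 rose by 1.62 ± 0.33, the prostaglandin synthase gene Ptgds by 1.81 ± 0.42 and the phosphatase gene Phospho1 by 1.54 ± 0.37. The call of Ptgds was lost without LL ZT0 replicate 2. Phospho1 shares exonic bases with Abi3 on the other strand and with Zfp652, and Hectd2os (log2 change 1.48 ± 0.24) is antisense to exons of Hectd2, so reads of these partners may be mixed.

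Abundant transcripts rose too. Elovl3 (ENSMUSG00000038754, chr19:46131897-46135694), which elongates very long chain fatty acids, had 484, 672, 493 and 550.0 CPM in the LL ZT0 livers, against 197, 224, 270.5 and 238 CPM in the LL ZT18 livers. The groups were well separated, with a log2 change of 1.24 ± 0.22 (SE; edgeR adjusted p = 0.000552). Clpx, the unfoldase of a mitochondrial protease, had 609, 505, 590.1 and 589.9 CPM in the LL ZT0 livers, against 291, 290.3, 295 and 322 CPM in the LL ZT18 livers. Its LL ZT18 values were tight and its lowest ZT0 value, in replicate 2, was still well above them. The log2 change was 0.94 ± 0.17 (SE; edgeR adjusted p = 0.000839). Insig2, which anchors the sterol sensor of the SREBP pathway in the ER, averaged 654 ± 52.1 CPM in the LL ZT0 livers and 406 ± 8.399 CPM in the LL ZT18 livers (SD, n = 4 each), and its log2 change was 0.69 ± 0.16 (SE; edgeR adjusted p = 0.00639) by edgeR's model. Crot, a peroxisomal carnitine transferase, rose by 0.67 ± 0.13 (edgeR adjusted p = 0.00125). Aqp8, a water channel of the bile canaliculus, had 466, 172, 455 and 417 CPM in the LL ZT0 livers, against 179.6, 228, 119 and 183 CPM in the LL ZT18 livers. The groups overlapped because LL ZT0 replicate 2 was low, and the log2 change was 1.09 ± 0.23 (SE; edgeR adjusted p = 0.00347) with that library and 1.33 without it.

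**Figure D3:**
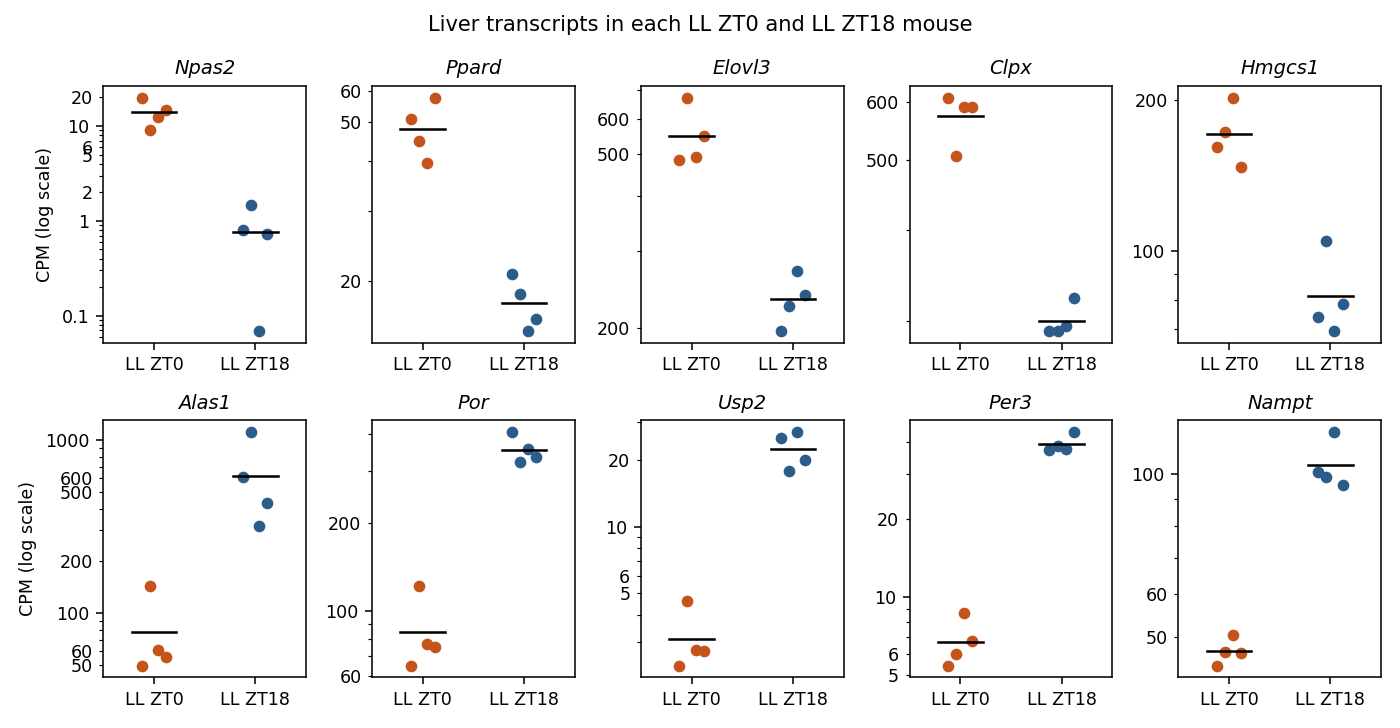
TMM-scaled CPM on a log scale (vertical) of 10 genes in each of the 4 LL ZT0 livers (orange, left) and 4 LL ZT18 livers (blue, right); bars mark the group means. In all 10 panels the groups do not overlap, with Npas2, Ppard, Elovl3, Clpx and Hmgcs1 higher at ZT0 and Alas1, Por, Usp2, Per3 and Nampt lower.

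Heme synthesis and the shared P450 electron donor were among the deepest falls. Alas1 (ENSMUSG00000032786, chr9:106233455-106248654), the rate-limiting enzyme of heme synthesis in liver, had 49.6, 144, 61.01 and 55.8 CPM in the LL ZT0 livers, against 608, 1107, 319 and 433 CPM in the LL ZT18 livers. LL ZT0 replicate 2 was the highest of its group and LL ZT18 replicate 2 the highest of its own, yet the groups stayed apart. The log2 change was -2.99 ± 0.52 (SE; edgeR adjusted p = 0.000442), and -3.48 without LL ZT0 replicate 2. Por (ENSMUSG00000005514, chr5:135670033-135735326), the reductase that supplies electrons to all microsomal P450 enzymes, had 65.1, 122, 76.95 and 75.3 CPM in the LL ZT0 livers, against 407, 322, 357 and 334 CPM in the LL ZT18 livers. Its 4.18-fold higher mean at ZT18 gave a log2 change of -2.06 ± 0.18 (SE; edgeR adjusted p = 2.04e-08), the smallest adjusted p for this step among the genes named here. Cyp2a5, a coumarin-oxidizing P450, fell by 1.17 ± 0.20 and Nr1i2, the xenobiotic receptor PXR, by 0.60 ± 0.09 (edgeR adjusted p = 0.000287 and 0.0001395); Cyp2a5 has a near-identical paralog. Of 24 tested genes of drug metabolism, 4 were called lower (against 2.59% of all genes) and 0 higher, with a median of -0.13. With LL ZT0 replicate 2 left out the count was 6. Among 25 conjugation enzymes only the sulfotransferase gene Sult1d1 was called, at -0.46 ± 0.13.

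Usp2, a deubiquitinase, had 2.35, 4.62, 2.75 and 2.72 CPM in the LL ZT0 livers, against 25.4, 17.9, 26.9 and 20.1 CPM in the LL ZT18 livers. Every LL ZT18 liver had more than every LL ZT0 liver, and the log2 change was -2.83 ± 0.30 (SE; edgeR adjusted p = 4.61e-07). Noct (nocturnin) fell by 2.08 ± 0.43, although LL ZT18 replicate 4 (9.36 CPM) lay close to the highest LL ZT0 value (8.70 CPM). Ttll8, a tubulin-modifying enzyme, fell by 2.42 ± 0.45 at levels of at most 2.35 CPM. Lmod2, an actin-nucleating protein of striated muscle, had 0.367, 0.878, 0.2199 and 0.266 CPM in the LL ZT0 livers, against 2.15, 2.34, 3.87 and 2.31 CPM in the LL ZT18 livers. The groups did not overlap, the log2 change was -2.50 ± 0.39 (SE; edgeR adjusted p = 0.000142), and it was -3.16 without LL ZT0 replicate 2 and -2.93 without both LL ZT0 replicate 2 and LL ZT18 replicate 3. These 2 libraries had the highest muscle marker sum of their groups (128 and 261 CPM); the part of muscle RNA in the Lmod2 result was not tested beyond this.

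The called genes of fatty acid and triglyceride synthesis were all lower: 7 of 21 tested were called lower (against 2.59% of all genes) and 0 higher. Their median log2 change was -0.41, against 0.01 over all genes. Lpin1, a phosphatidate phosphatase of triglyceride synthesis, had 84.3, 113, 89.5 and 75.96 CPM in the LL ZT0 livers, against 309, 604, 383 and 217 CPM in the LL ZT18 livers. LL ZT18 replicate 2 stood high, and the groups were still separate with a log2 change of -2.06 ± 0.27 (SE; edgeR adjusted p = 1.34e-05). Thrsp (Spot 14), a lipogenic protein, had 471, 369, 497 and 493 CPM in the LL ZT0 livers, against 1550.0, 1606, 1203 and 1654 CPM in the LL ZT18 livers. All LL ZT0 values lay far below all LL ZT18 values, and the log2 change was -1.72 ± 0.23 (SE; edgeR adjusted p = 1.45e-05). Fads2, the delta-6 desaturase, had 1494, 1387, 1587 and 1381 CPM in the LL ZT0 livers, against 2383, 2459.7, 2388 and 2839 CPM in the LL ZT18 livers, a modest but clean difference of -0.78 ± 0.14 (SE; edgeR adjusted p = 0.000698). Dgat2, which completes triglyceride synthesis, fell by 0.42 ± 0.08, Lpin2 by 0.91 ± 0.18, the desaturase gene Fads1 by 0.51 ± 0.14 and the acetyl-CoA carboxylase gene Acacb by 0.79 ± 0.23. Leaving out LL ZT0 replicate 2, 5 of the 21 were called. The lipid droplet genes Fitm2 and Pnpla2, the triglyceride lipase, were the only calls among 13 tested, at -0.57 ± 0.13 and -0.44 ± 0.12. The apolipoprotein gene Apoa5, which promotes plasma triglyceride clearance, fell by 0.59 ± 0.10. It was the only call among 19 apolipoprotein and VLDL genes, where 4.88% of all genes were called.

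Of 28 tested genes of fatty acid oxidation, 5 were called lower and 1 higher (against 2.59% and 2.29% of all genes), with a median of -0.18. Angptl4, a secreted lipase inhibitor, fell by 0.89 ± 0.20, and Cpt1a, which admits fatty acids to mitochondria, by 0.48 ± 0.12. The carrier gene Slc25a20 fell by 0.29 ± 0.08 and the thioesterase gene Acot3 by 1.95 ± 0.55. Pdk4, which restrains pyruvate oxidation, was the exception at 1.41 ± 0.43, just inside the threshold (edgeR adjusted p = 0.0499), and it was not called with DESeq2's size factors. When LL ZT0 replicate 2 was left out, 2 of the 28 were called lower and 1 higher. Cholesterol synthesis genes had 2 called higher and 0 lower of 25, with a median of 0.10. Hmgcs1, the synthase that makes HMG-CoA, had 161, 172, 202 and 147 CPM in the LL ZT0 livers, against 73.9, 104, 69.2 and 78.2 CPM in the LL ZT18 livers. Its groups did not overlap, with a log2 change of 1.07 ± 0.20 (SE; edgeR adjusted p = 0.00105). Sc5d, a late enzyme of the pathway, rose by 0.40 ± 0.12 (edgeR adjusted p = 0.0434). In bile acid handling, Abcb11, the canalicular bile salt export pump, rose by 0.56 ± 0.11 and the sterol exporter gene Abcg5 fell by 0.50 ± 0.12, the only calls among 20 tested.

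Gluconeogenesis was the metabolic list with the largest called share: 8 of 17 tested genes were called lower (against 2.59% of all genes) and 0 higher. All 17 log2 changes were negative and the median was -0.40. The same 17 signs were negative under both alternative scalings tried. Pck1, which makes phosphoenolpyruvate, had 839, 1431, 1214 and 779 CPM in the LL ZT0 livers, against 1485, 1913, 3356 and 1456 CPM in the LL ZT18 livers. The groups did not overlap, but LL ZT0 replicate 2 (1431 CPM) nearly reached LL ZT18 replicate 4 (1456 CPM), and the log2 change was -0.95 ± 0.23 (SE; edgeR adjusted p = 0.00994). Slc37a4, the glucose-6-phosphate transporter of the ER, fell by 0.55 ± 0.09, and the transaminase genes Gpt, Gpt2 and Got1 fell by 0.44 ± 0.09, 0.38 ± 0.09 and 0.80 ± 0.16. Klf15, a regulator of amino acid use in fasting, fell by 0.60 ± 0.12, the serine dehydratase gene Sds by 0.91 ± 0.19 and Fbp1 (fructose-bisphosphatase) by 0.32 ± 0.09. This count was 7 without LL ZT0 replicate 2.

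Genes of glucose uptake, glycolysis and glycogen were also mostly lower, with a median of -0.27. Of 20 tested, 5 were called lower and 1 higher (against 2.59% and 2.29% of all genes). Gys2, the liver glycogen synthase, had 150.3, 118, 150.4 and 140.4 CPM in the LL ZT0 livers, against 229, 226, 215 and 219 CPM in the LL ZT18 livers. The groups were separate, with a log2 change of -0.67 ± 0.11 (SE; edgeR adjusted p = 0.000356). Ppp1r3c, which targets protein phosphatase 1 to glycogen, went the other way with 222, 209.5, 205 and 265 CPM in the LL ZT0 livers, against 122, 64.1, 137 and 100.4 CPM in the LL ZT18 livers. Its log2 change was 1.09 ± 0.23 (SE; edgeR adjusted p = 0.00381), again without overlap. Pfkfb1 and Pfkfb3, enzymes that set fructose 2,6-bisphosphate, fell by 0.66 ± 0.14 and 1.40 ± 0.39, and the enolase gene Eno1 by 0.39 ± 0.09. Of 17 insulin and growth hormone signalling genes, Foxo3 fell by 0.54 ± 0.10 and Stat5b rose by 0.39 ± 0.09.

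Amino acid breakdown and the urea cycle had 7 genes called lower and 1 higher of 25 (against 2.59% and 2.29% of all genes). The median was -0.24. Asl (argininosuccinate lyase) had 469.6, 559.9, 509 and 519 CPM in the LL ZT0 livers, against 927, 882, 931 and 827 CPM in the LL ZT18 livers, a tight separation with a log2 change of -0.79 ± 0.11 (SE; edgeR adjusted p = 1.45e-05). The urea cycle genes Arg1 and Ass1 fell by 0.43 ± 0.10 and 0.38 ± 0.10. Mat1a, which makes S-adenosylmethionine, had 3332, 3968, 3494 and 3553 CPM in the LL ZT0 livers, against 5050.3, 5054, 4708 and 4731 CPM in the LL ZT18 livers. This was one of the largest falls in CPM, though only 1.36-fold, with a log2 change of -0.45 ± 0.10 (SE; edgeR adjusted p = 0.00759). Prodh (proline oxidation) and Hgd (tyrosine breakdown) fell by 0.64 ± 0.12 and 0.29 ± 0.07. Cbs, the entry enzyme of transsulfuration, was the one that rose, by 0.42 ± 0.09 (edgeR adjusted p = 0.00268). Uox, which degrades urate, had 2171, 1640.0, 2147 and 2187 CPM in the LL ZT0 livers, against 2836, 3026, 2739.7 and 2833 CPM in the LL ZT18 livers. LL ZT0 replicate 2 lay below its mates, and the log2 change was -0.49 ± 0.11 (SE; edgeR adjusted p = 0.00442) with it and -0.40 without it. Ces1d, a carboxylesterase from a family of close paralogs, fell by 0.82 ± 0.14.

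**Figure D4:**
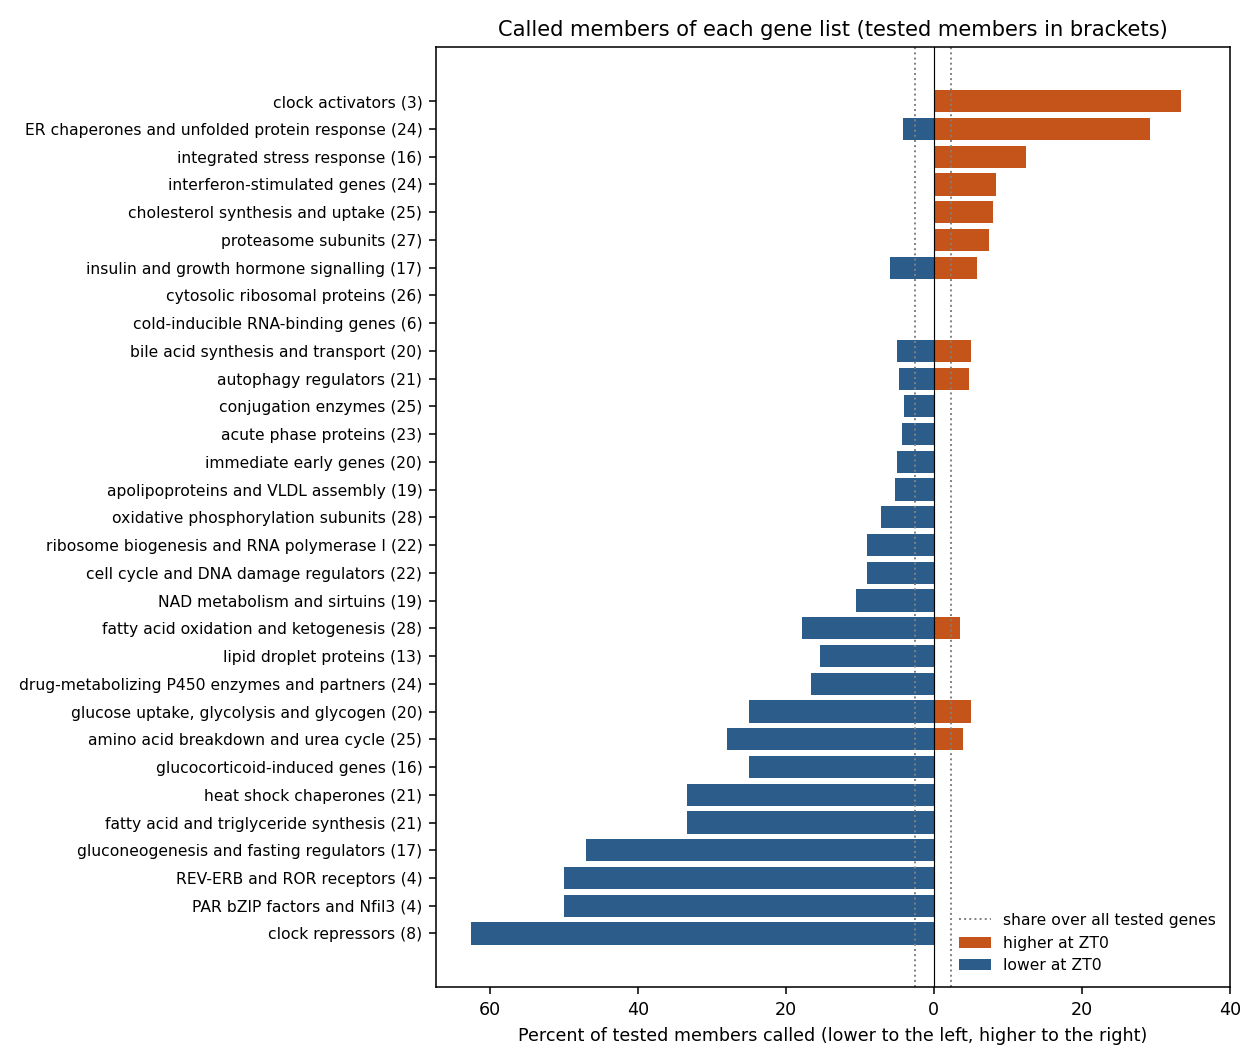
For each gene list, the percent of its tested members (number in brackets) called higher at ZT0 (orange, to the right) or lower at ZT0 (blue, to the left). Dotted lines mark the shares over all tested genes, 2.29% higher and 2.59% lower; the clock repressors and gluconeogenesis reach furthest to the left among lists of at least 8 genes, and the ER chaperones furthest to the right.

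Called chaperones of the ER were mostly higher at ZT0, and those of the cytosol lower. Of 24 tested genes of the ER chaperone and unfolded protein response list, 7 were called higher and 1 lower, with a median of 0.31. Over all genes, 2.29% were called higher and 2.59% lower. Sdf2l1, an ER cochaperone, had 13.8, 25.5, 12.97 and 18.4 CPM in the LL ZT0 livers, against 6.65, 5.12, 8.497 and 8.76 CPM in the LL ZT18 livers. LL ZT0 replicate 2 was the highest, the groups did not overlap, and the log2 change was 1.29 ± 0.27 (SE; edgeR adjusted p = 0.00353). Manf, an ER-resident secreted factor, rose by 0.80 ± 0.18, the disulfide isomerase genes Pdia4, Pdia3 and Pdia6 by 0.55 ± 0.11, 0.38 ± 0.09 and 0.29 ± 0.08, the lectin chaperone gene Calr by 0.46 ± 0.11 and Hsp90b1 (GRP94) by 0.38 ± 0.10. Herpud1, a component of ER-associated degradation, fell by 0.72 ± 0.16, with LL ZT18 replicate 3 far above its mates at 531 CPM. Once LL ZT0 replicate 2 was left out, 3 of the 24 were called higher and 1 lower, with a median of 0.24. Of 21 cytosolic and mitochondrial heat shock chaperones, 7 were called lower and 0 higher, with a median of -0.25. Hspa8, the constitutive HSP70, had 240.5, 360.3, 223 and 326 CPM in the LL ZT0 livers, against 690.4, 623, 611 and 471 CPM in the LL ZT18 livers. The groups were separate, with a log2 change of -1.06 ± 0.14 (SE; edgeR adjusted p = 1.45e-05). The inducible HSP70 genes Hspa1a and Hspa1b fell by 3.16 ± 0.52 and 1.83 ± 0.31. They are near-identical copies, so their split is uncertain. Hspa1a was scarce, with a mean of 0.174 CPM in the LL ZT0 livers and 1.68 CPM in the LL ZT18 livers. LL ZT18 replicate 4 had 0.527 CPM, so the size of its fall is uncertain. The cochaperone genes Dnajb1, Dnaja1 and Dnajb4 fell by 0.61 ± 0.12, 0.49 ± 0.12 and 0.39 ± 0.12, and Hsph1 (HSP110) by 0.73 ± 0.18. Of the 21, 6 were called lower without LL ZT0 replicate 2.

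The windows of all tested genes, not only of chaperone genes, were searched for the classical motifs of both kinds of response, on both strands. The ER stress element was read as CCAAT and CCACG with 9 bases of any kind between them, and the heat shock element as GAA, TTC and GAA, or TTC, GAA and TTC, each 2 bases apart. The ER stress element occurred in 1.59% of windows of genes called higher (Calr, Hsp90b1, Hnrnpa3 and Pdia6). It occurred in 0.342% of those called lower (Acacb) and 0.181% of all tested genes. The heat shock element occurred in 0.794% of windows of genes called higher (Smo and Fam149a) and 0.362% of all tested genes. Among genes called lower it occurred in 2.05% (Ahcy, Gm45609, Dnajb6, Hsph1, Timm9 and Sf3b2). One window of each kind, picked after the values were seen, is printed with these motifs and any clock motif in capitals. Calr (chr8:84846882-84847181, minus strand) has the ER stress element 162 bases and an E-box 224 bases before the start. Ahcy (chr2:155074448-155074747, minus strand), which hydrolyses S-adenosylhomocysteine and fell by 0.56 ± 0.08, has the heat shock element 13 bases and a ROR half-site 205 bases before the start.
Calr: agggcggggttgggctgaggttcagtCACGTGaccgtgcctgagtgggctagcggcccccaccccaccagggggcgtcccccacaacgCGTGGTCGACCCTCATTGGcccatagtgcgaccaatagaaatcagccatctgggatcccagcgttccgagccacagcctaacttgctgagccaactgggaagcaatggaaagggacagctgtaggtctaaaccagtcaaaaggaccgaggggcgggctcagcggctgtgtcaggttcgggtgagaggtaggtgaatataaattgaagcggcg
Ahcy: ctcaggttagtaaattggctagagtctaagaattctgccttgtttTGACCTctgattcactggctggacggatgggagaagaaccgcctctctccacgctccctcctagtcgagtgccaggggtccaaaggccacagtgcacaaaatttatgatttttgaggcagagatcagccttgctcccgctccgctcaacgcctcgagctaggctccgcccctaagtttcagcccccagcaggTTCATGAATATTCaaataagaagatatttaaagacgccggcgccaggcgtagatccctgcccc

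Nampt and Nmrk1, which feed NAD synthesis, fell. Nampt, the rate-limiting enzyme of NAD salvage, had 44.2, 46.9, 50.3 and 46.6 CPM in the LL ZT0 livers, against 101, 98.9, 119 and 95.5 CPM in the LL ZT18 livers. The values were tight in both groups, the mean was 2.21-fold higher at ZT18 and the log2 change was -1.14 ± 0.14 (SE; edgeR adjusted p = 6.09e-06). Nmrk1, a nicotinamide riboside kinase, fell by 1.49 ± 0.17 (edgeR adjusted p = 1.66e-06). Nampt and Nmrk1 were the only calls among 19 tested NAD and sirtuin genes, where 4.88% of all tested genes were called. Wee1, a clock-gated inhibitor of entry to mitosis, had 5.87, 4.74, 8.57 and 4.38 CPM in the LL ZT0 livers, against 18.1, 15.4, 14.6 and 16.8 CPM in the LL ZT18 livers. Its log2 change was -1.50 ± 0.22 (SE, edgeR adjusted p = 6.29e-05), without overlap, and the cyclin gene Ccnd3 fell by 0.31 ± 0.09. The other 20 tested cell cycle genes were not called, against the same 4.88% called over all genes.

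Genes known to be induced by glucocorticoids had 4 called lower (against 2.59% of all genes) and 0 higher of 16, with a median of -0.49. Fkbp5, a cochaperone of the glucocorticoid receptor, had 19.6, 49.3, 30.3 and 28.8 CPM in the LL ZT0 livers, against 88.5, 76.9, 75.8 and 79.9 CPM in the LL ZT18 livers. All LL ZT0 livers were below all LL ZT18 livers, and the log2 change was -1.32 ± 0.24 (SE; edgeR adjusted p = 0.000789). Zbtb16 fell by 1.42 ± 0.30, Tsc22d3 (GILZ) by 0.66 ± 0.19, and Per1, a member of this list as well as of the clock, is given above. Of 20 immediate early genes, Myc alone was called. It had 1.69, 2.46, 2.53 and 2.06 CPM in the LL ZT0 livers, against 3.75, 23.2, 1.73 and 6.92 CPM in the LL ZT18 livers. The groups overlapped and LL ZT18 replicate 2 was far above the rest, with a log2 change of -2.02 ± 0.53 (SE; edgeR adjusted p = 0.0197).

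Other lists held at most 2 calls each, where 4.88% of all tested genes were called. Those with 2 calls lay above that share, but each on only 2 genes. Of 16 integrated stress response genes, the transcription factor genes Atf5 and Nupr1 rose by 0.45 ± 0.11 and 1.2 ± 0.32. Of 24 interferon-stimulated genes, the RNA sensor gene Ddx58 and the antiviral gene Rsad2 rose by 0.42 ± 0.10 and 0.83 ± 0.23, and the median was 0.22. The autophagy receptor gene Sqstm1 rose by 0.30 ± 0.08 and the mitophagy gene Bnip3 fell by 0.61 ± 0.10, of 21 tested. Of 27 proteasome subunits, Psma1 and Psmc6 rose by 0.28 ± 0.07 and 0.21 ± 0.06. Saa4, a constitutive serum amyloid, was the only call of 23 acute phase genes at -0.49 ± 0.14, and its groups overlapped. The nucleolar genes Rrp12 and Nop2 fell by 0.61 ± 0.15 and 0.43 ± 0.13, of 22 ribosome biogenesis genes. Without LL ZT12 replicate 3, 6 were called lower, in a fit that called 1266 genes in all, 729 of them lower. The 26 cytosolic ribosomal protein genes all had negative log2 changes with a median of -0.12, and 0 were called by edgeR. The 28 oxidative phosphorylation genes were also all negative, with a median of -0.18. Atp5a1 and Sdhd were called lower at -0.22 ± 0.05 and -0.22 ± 0.06. The count was 13 without LL ZT12 replicate 3, in that same fit with 1266 calls, and 1 without LL ZT0 replicate 2. Of 6 cold-inducible RNA-binding genes, 0 were called. The calls of Nupr1, Psmc6, Nop2 and Sdhd were lost without LL ZT0 replicate 2.

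In the marker lists of blood cells, only 2 neutrophil genes were called. Over all tested genes, 2.29% were called higher and 2.59% lower. Of erythroid markers 4 were tested and 0 called, all with negative log2 changes (median -0.22). Of T and B lymphocyte markers 3 were tested and 0 called. Csf3r and S100a9, a receptor and a calcium-binding protein of neutrophils, were the only tested members of 8 neutrophil markers and both were called higher, at 0.94 ± 0.27 and 1.38 ± 0.40; the 8 markers summed to 2.79 to 6.15 CPM in the LL ZT0 livers and 1.32 to 2.71 CPM in the LL ZT18 livers. Both calls were lost without LL ZT0 replicate 2, which had the highest Csf3r value. Cx3cr1, the fractalkine receptor of monocytes and macrophages, had 1.25, 2.58, 1.76 and 0.9296 CPM in the LL ZT0 livers, against 0.615, 0.439, 0.414 and 0.527 CPM in the LL ZT18 livers. Its groups did not overlap, with a log2 change of 1.69 ± 0.32 (SE; edgeR adjusted p = 0.00128), and 1.33 without LL ZT0 replicate 2. Kupffer cell and macrophage markers summed to 385 to 567 CPM in the LL ZT0 livers and 328 to 440 CPM in the LL ZT18 livers, and 0 of the 12 were called by edgeR. Whether cell number moved with these genes was not tested.

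The same ZT hours in short light gave a different step. The step in long light minus the step in short light (ZT0 minus ZT18 in each) differed from 0 for 1611 genes (11.1%), 785 of them positive and 826 negative, in an interaction test of the same edgeR fit. For Npas2 the log2 change was 4.20 in long light and -5.70 in short light, a difference of 9.90 (edgeR adjusted p = 6.80e-12). Its mean at SL ZT0 was only 0.171 CPM, so the size of this difference is uncertain. For Por the changes were -2.06 in long light and 2.07 in short light (edgeR adjusted p of the difference = 9.19e-13). Elovl3 changed by 1.24 in long light and -3.04 in short light (edgeR adjusted p of the difference = 5.30e-11). Arntl, not called in the long light step, differed by 4.20 between the photoperiods (edgeR adjusted p = 1.73e-09). Hmgcs1 changed by 1.07 in long light and 0.41 in short light, a difference of 0.66 that did not pass (edgeR adjusted p = 0.143), and Zbtb16 likewise differed by only 0.74 (edgeR adjusted p = 0.354). By list, the difference was called negative for 12 of 21 fat synthesis genes and 10 of 17 gluconeogenesis genes, and positive for 11 of 24 ER chaperone genes, against 5.71% negative and 5.43% positive over all genes.

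The short light step from ZT6 to ZT12 shares no library with the long light step. Of the 331 genes called higher here, 319 had a positive change from SL ZT6 to SL ZT12 and 219 were called higher there (66.2% of the long light list and 27.7% of the 791 genes, 5.47% of those tested, called higher in that short light step). Of the 375 genes called lower, 364 had a negative change and 234 were called lower (62.4% of the long light list and 34.9% of 671 genes, 4.64% of those tested). No gene was called in opposite directions. In SL ZT0 minus SL ZT18, 7.16% of tested genes were called, 3.86% higher and 3.3% lower. In this step 140 of the 331 (42.3%) and 162 of the 375 (43.2%) were called in the opposite direction, and 2 and 1 in the same direction. Over the 706 genes, the log2 changes in long light had a Pearson r of 0.873 with those of SL ZT12 minus SL ZT6 and of -0.754 with those of SL ZT0 minus SL ZT18, as a description across genes that share 1 model fit. The steps come from different mice but the pairing of these hours was taken from earlier results of these data, so the likeness is not independent support.

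The long light step and the SL ZT6 to ZT12 step, in which 10.1% of tested genes were called, differed for 1 gene (0.00692%) at the same threshold, with 987 genes at an unadjusted p under 0.05. Estimated sizes still varied among genes that moved the same way. Npas2 changed by 4.20 in long light and 7.69 in SL ZT12 minus SL ZT6, where its SL ZT6 mean was only 0.0501 CPM. Thrsp changed by -1.72 in long light and -1.23 in SL ZT12 minus SL ZT6. Neither difference between the steps passed (edgeR adjusted p = 0.354 for Npas2 and 0.815 for Thrsp). Por changed by -2.06 in long light and -1.95 in that short light step. A p that misses the threshold does not show that such sizes are equal.

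**Figure D5:**
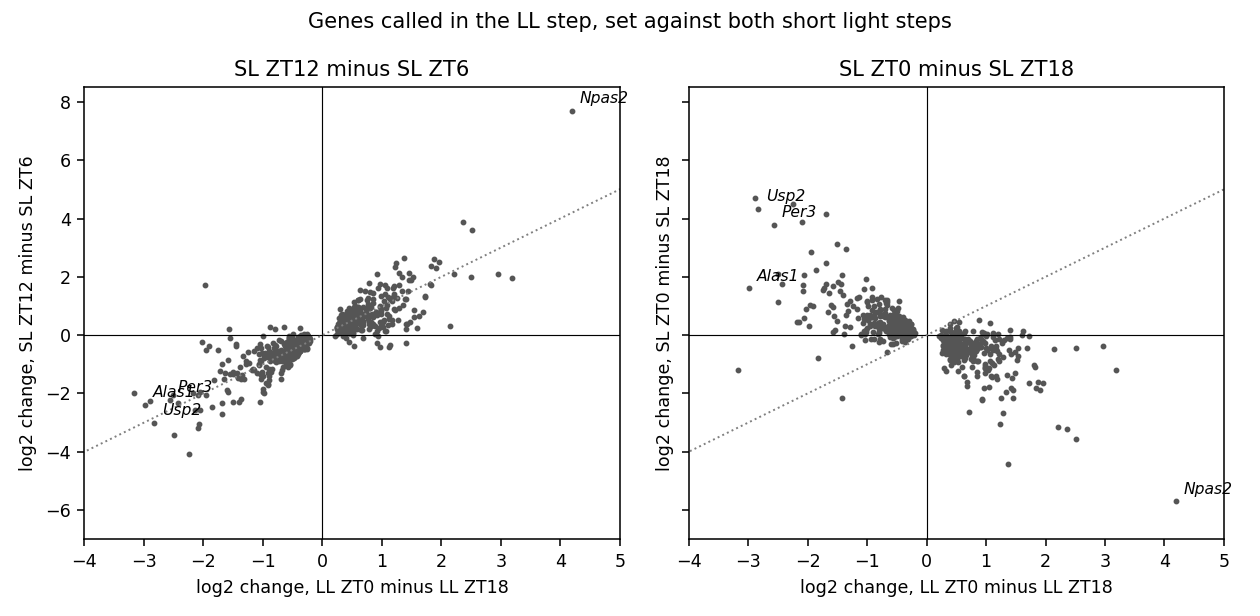
Each of the 706 called genes is placed by its log2 change in long light, LL ZT0 minus LL ZT18 (horizontal), against its change in short light (vertical), with SL ZT12 minus SL ZT6 on the left and SL ZT0 minus SL ZT18 on the right; the dotted line marks equal change. Points run along the rising diagonal on the left (Pearson r 0.873) and downwards on the right (Pearson r -0.754).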

How the data were processed

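Polyadenylated RNA from 32 livers was sequenced from Illumina TruSeq Stranded mRNA libraries, per the labels' protocols. Per the submitters' processing notes, bcl2fastq 2.20.0, STAR 2.7.2b and featureCounts 1.6.2 were used with GRCm38 (mm10). For the annotation, strand setting and treatment of multi-mapping reads, nothing is stated in those notes or the labels. As the files show, the authors deposited raw read counts per gene for every library and a table of log2 values; the deposited log2 table matched TMM-scaled log2 CPM of the same 13432 genes computed from the counts. Gene names and coordinates are from GENCODE M21, and promoters from RefSeq's GRCm38.p6 table.

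Columns were matched to samples by the library number in the description. Counts were tested with edgeR 4.0.16 in R 4.3.3: TMM scaling, filterByExpr, and a quasi-likelihood fit of 8 group means over 32 libraries, with Benjamini-Hochberg adjustment at 0.05 over 14456 genes. CPM values are TMM-scaled, and SE is the absolute log2 change divided by the root of the F statistic. Step differences were contrasts of the same fit. Limma 3.58.1 and DESeq2 1.42.0 were alternatives. The scripts were tested on simulated data.

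Named genes included the 12 largest rises and the 12 largest falls among genes whose groups did not overlap. The 6 largest rises and falls in mean CPM were added. All of these were called, with a mean CPM of at least 1 and no clone-like name. All clock genes and up to 4 members of each list by p were also named. Further called list members were named after their values were seen. Some genes these rules name are not reported here. Members and lists were chosen with earlier results of these data known. Pairs of the 8 libraries differed by more than sampling noise. Same-numbered libraries deviated together with r of 0.243, 0.0531, -0.0102 and 0.241, so replicate numbers were not taken as pairs. Library depth limits precision for genes below about 1 CPM.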

Additional observations from a re-analysis of the deposited data

Results flagged for a closer look

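In each group of 4 livers, a library was singled out where its gap to the nearest of the others took up more than 0.829 of the group's range (Dixon's 95% value for 4). Of 246 groups of 4 tested over named genes, library measures and marker sums, 18 held such a library, and chance gives about 1 in 20 groups. LL ZT0 replicate 2 was high for Alas1 (144 CPM) and for the summed skeletal muscle markers (128 CPM), and low for Aqp8 (172 CPM) and Uox (1640.0 CPM). The other LL ZT0 libraries singled out were replicate 1 for Tef (56.0 CPM), replicate 3 for Per2 (27.8 CPM) and Tsc22d3 (76.0 CPM), and replicate 4 for summed exocrine pancreas markers (31.9 CPM) and summed mitochondrially encoded genes (34122 CPM). Among LL ZT18 libraries, replicate 4 was singled out for Fads2 (2839 CPM), Clpx (322 CPM), Csf3r (0.659 CPM), summed intestine markers (198 CPM) and summed mitochondrially encoded genes (33332 CPM). LL ZT18 replicate 3 was far from its mates for Lmod2 (3.87 CPM) and Herpud1 (531 CPM), replicate 2 for Got1 (453 CPM) and replicate 1 for Hlf (102 CPM).

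Among 37 genes of the largest changes and the clock lists, 34 had a long light step that differed from the short light step over the same ZT hours in edgeR's interaction test. Over all tested genes this share was 11.1%. The genes of the largest changes were picked by the same long light values that enter the test, so the count of 34 is no independent support. The differences below are log2 values of the long light step minus the short light step. The positive ones were 9.90 for Npas2, 4.20 for Arntl, 3.78 for Spon2, 3.34 for Ppard, 3.34 for Loxl4, 2.85 for Ptgds, 2.79 for Mug2, 2.38 for Rab36, 2.25 for Phospho1, 2.14 for Cx3cr1, 2.06 for Hectd2os, 1.69 for Clock, 1.55 for Nfil3, 1.49 for Zfp941 and 1.03 for Cry1. Clock output and repressor genes made up most of the negative ones, with -7.14 for Usp2, -6.76 for Ciart, -6.33 for Per3, -5.85 for Dbp, -4.38 for Bhlhe41, -4.09 for Per1, -3.50 for Tef, -2.62 for Nr1d2, -2.41 for Per2, -2.36 for Bhlhe40, -1.32 for Cry2 and -1.01 for Hlf. The others were -4.59 for Alas1, -4.19 for Ttll8, -4.13 for Por, -3.65 for Lmod2, -3.61 for Noct, -3.33 for Thrsp and -2.65 for Lpin1. Zfp941 had the largest edgeR adjusted p of the 34, 0.0238. The causes of these differences were not tested.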

How the results depend on the processing

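The count of 706 called genes was 616 to 859 under DESeq2's size factors, scaling without the mitochondrial and 20 most abundant genes, no or a stricter filter, the 8 libraries alone, DESeq2, limma-voom and limma on the authors' log2 values. Fitting the 16 long light libraries alone gave 404 (171 higher, 233 lower). Leaving out 1 library of the 8 gave 443 to 695 called genes, 204 to 314 higher and 239 to 381 lower. Of alternatives chosen after seeing the data, leaving out LL ZT0 replicate 2 with LL ZT18 replicate 3 gave 494 (207 higher, 287 lower), and leaving out LL ZT12 replicate 3 gave 1266 (537 higher, 729 lower). These fits used fewer samples, yet the last of them called more genes than the full fit. The cause was not tested. With replicate number as a block 693 genes were called (335 higher, 358 lower); the numbers do not pair the mice.

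Of 109 named genes followed, 75 kept their direction and their side of the threshold under every alternative run. Arntl was called with the 8 libraries alone and Bhlhe40 with no filter, and Nr1d1, not called, ranged between -0.023 without LL ZT0 replicate 2 and 0.53 without LL ZT0 replicate 1. The difference from the short light step at the same hours stayed between 1336 and 1948 genes, and between 1334 and 1547 on leaving out 1 library, with 653 to 743 positive and 681 to 804 negative. The difference from SL ZT6 to ZT12, 1 gene, became 12 with no filter (5 positive, 7 negative), 7 in the 4 groups alone (1 positive, 6 negative), 2 with the replicate block (2 negative), 15 by DESeq2 (7 positive, 8 negative), 5 by limma on the log2 values (2 positive, 3 negative) and 1 to 5 on leaving out 1 library (0 to 1 positive, 1 to 4 negative).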
